A study of Homo sapiens with 5 samples.

Results

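Solute carriers are membrane proteins that move nutrients, ions, metals, cofactors and some drugs across the plasma membrane and the membranes of organelles. Most work as facilitators, exchangers or cotransporters that use existing gradients and not ATP directly, and their genes are numbered by family, so that SLC25 holds the mitochondrial carriers and SLC35 the nucleotide sugar transporters of the Golgi and the endoplasmic reticulum. The carriers described here were chosen by symbol and by abundance. Of the 26485 genes with deposited counts, 365 had a symbol made of SLC, a family number, letters and a member number, and the 159 of these with at least 1000 raw counts summed over all 5 libraries were taken. The summed count thus chose the genes and is not a finding. The members nearest to this limit were SLC41A2, a magnesium transporter, with 1012 counts on the inside and SLC2A10, of the glucose transporter family, with 929 on the outside. Of the other symbols, 176 had fewer counts and 30 had none.

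The libraries came from the established human cell line RPE1, which derives from retinal pigment epithelium and was labelled as wild type. Of the 5, 2 received DMSO, and doxorubicin was given at 0.2 μM in 2 and at 0.34 μM in 1, each for 18 h. Doxorubicin is an anthracycline that intercalates into DNA and traps topoisomerase II, and DMSO is its solvent, so the control cells received the solvent too. These concentrations stand in the sample labels, whereas a description of the treatment gives larger values. The study calls the libraries biological replicates. The line is a culture and not the tissue it came from. Of 12 markers of retinal pigment epithelium and epithelium, RPE65, RLBP1, LRAT, TYR and TYRP1 had at most 25 counts in any library and were not tested. MITF, a transcription factor of pigment cells, had 29.1 to 56.7 CPM (a read count scaled to the library's total, here after TMM normalization) with overlapping groups, and MERTK and SERPINF1 had at most 5.13 and 1.14 CPM and overlapped too. BEST1 and PMEL were low, at most 3.91 and 1.33 CPM, and higher in every doxorubicin library than in DMSO. So were the keratins KRT8 (346 to 661 CPM) and KRT18 (238 to 515 CPM), and DESeq2 called PMEL and KRT8 while edgeR called none of the 12. Of 6 markers of other cells, CD3E and HBB had 0 counts, PECAM1, ALB and GFAP had at most 13, and PTPRC had at most 2.20 CPM, with its higher values in the doxorubicin libraries. The part of these markers in the results was not tested. Total counts lay between 23773061 and 36725345 per library, and the solute carrier genes took 0.974% of them in DMSO replicate 1 and between 1.14% and 1.17% in the others.

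To find out how transport genes responded to the drug, the 3 doxorubicin libraries were pooled and compared with the 2 DMSO libraries. All 159 genes passed the filter on low counts. With edgeR's quasi-likelihood test and an adjusted p-value of 0.01 as threshold, 1 solute carrier gene rose and 3 fell. These 4 are 2.52% of the members, against 4.02% of all 14187 genes tested (1.29% higher and 2.73% lower) and 5.18% of the 9992 genes tested that also had at least 1000 counts (1.59% and 3.59%). The share of called carriers was thus not above the background. DESeq2 on the same groups called 26 members, 15 higher and 11 lower, among them the 4 called by edgeR. This is 16.4%, beside 14.1% of all genes (6.37% higher and 7.72% lower) and 16.9% of those with at least 1000 counts (7.21% and 9.71%). limma voom called 2 members, 1 in each direction, beside 3.71% of all genes (1.12% higher and 2.59% lower). The count of 4 rested on the setting. Without the filter on low counts it was 12 (7.55%), beside 4.92% of 20717 genes, a background that also holds genes with very few counts. With the replicate number as a block in the 0.2 μM and DMSO libraries it was 12 (7.55%), beside 8.99% of all genes. Neither background is limited to genes with at least 1000 counts, as the members are. The genes called with the block are named further below, and the gene values that follow are without it unless stated. With RLE size factors it was 4, beside 3.98%. It was 1 without DMSO replicate 1 (background 1.48%) and 0 without DMSO replicate 2 (0.335%), without replicate 1 (1.48%) or 2 (1.31%) of 0.2 μM, without the 0.34 μM library (1.28%) and for 0.2 μM against DMSO in a fit of 3 conditions (1.21%). At an adjusted p of 0.05 it was 23 (14.5%, 13 higher and 10 lower), beside 13.6% of all genes and 15.7% of those with at least 1000 counts. In bulk RNA, a change in the mixture of cells, such as in their cell cycle stage, cannot be told apart from a change per cell.

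The gene that rose was SLC12A4, which encodes the potassium-chloride cotransporter KCC1 (chromosome 16 of GRCh38, 67943474 to 67968694). It had 59 and 71.6 CPM in the DMSO libraries, 166 and 165 at 0.2 μM and 213 at 0.34 μM. Every doxorubicin library lay well above both DMSO libraries. The DMSO mean was 65.3 ± 8.87 CPM (SD, n = 2) and the doxorubicin mean 181 ± 27.4 CPM (SD, n = 3). The log2 fold change was 1.47 (standard error 0.19, edgeR adjusted p = 0.00544). The gene overlaps LCAT, and reads of the pair may be shared.

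SLC43A3 (chromosome 11, 57406954 to 57427580) showed the largest fall among the 159 genes. It encodes a transporter of purine nucleobases, although other members of its family carry amino acids. Its level was 36.9 and 51.3 CPM in DMSO and 10.5, 14 and 10.7 CPM after doxorubicin. The lowest DMSO library was well above the highest treated library, and the log2 fold change was -1.91 (standard error 0.22, edgeR adjusted p = 0.00355). SLC4A8, an exchanger of sodium, bicarbonate and chloride (chromosome 12, 51391446 to 51515763), had 27.6 and 33.9 CPM in DMSO and 14.9, 13.7 and 12.6 CPM after doxorubicin. The groups did not overlap, and it fell by 1.16 on the log2 scale (standard error 0.18, edgeR adjusted p = 0.00962). It overlaps GALNT6 and its own antisense gene. SLC6A9, the glycine transporter GlyT1 (chromosome 1, 43996483 to 44031462), had 36.8 and 33.5 CPM in DMSO and 18.0, 16.5 and 18.1 CPM after doxorubicin, with libraries of each group close to each other. It fell by 1.00 (standard error 0.15, edgeR adjusted p = 0.00971) and overlaps CCDC24. All 4 calls had non-overlapping groups, as had 47.7% of all genes tested, and 2 of them, those of SLC12A4 and SLC43A3, were also made by limma voom. Both come from the same counts and are not separate support. With each library left out, the log2 fold changes lay between 1.33 and 1.6 for SLC12A4, -2.14 and -1.67 for SLC43A3, -1.31 and -1.03 for SLC4A8 and -1.09 and -0.94 for SLC6A9. Only the call of SLC43A3 was made in any of these 5 fits (without DMSO replicate 1, edgeR adjusted p = 0.00941), where the highest adjusted p-values from edgeR were 0.0291, 0.0214, 0.0633 and 0.0616 in the order above.

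**Figure D1:**
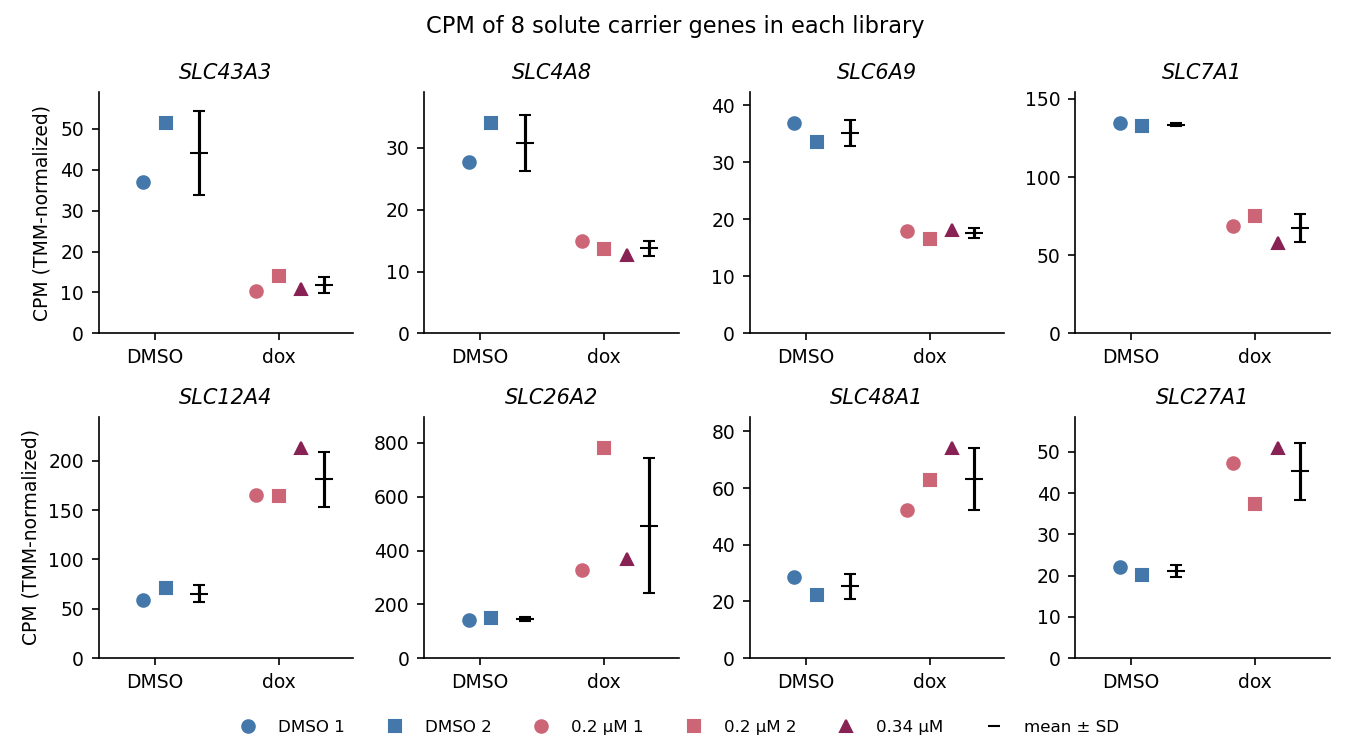
TMM-normalized CPM (vertical axes, from 0) of 8 solute carrier genes in the 2 DMSO and the 3 doxorubicin libraries (points), with the mean and SD of each group in black. In each panel the groups are separate, and replicate 2 of 0.2 μM stands apart for SLC26A2, at 780 CPM against 329 and 370 in the other treated libraries.

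The stretches before the transcription starts of the called genes are shown so that the short motifs counted over all members can be seen in place. Promoter sequences (GRCh38.p14) were at hand for 133 of the 159 genes, among them 3 of the called genes but not SLC43A3. The 250 bases before each start were searched on both strands for short motifs. In SLC12A4 (chr16:67968695-67968944, minus strand) capitals mark the GC box GGGCGG, or CCGCCC where it lies on the other strand, which was found 5 times.

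SLC12A4: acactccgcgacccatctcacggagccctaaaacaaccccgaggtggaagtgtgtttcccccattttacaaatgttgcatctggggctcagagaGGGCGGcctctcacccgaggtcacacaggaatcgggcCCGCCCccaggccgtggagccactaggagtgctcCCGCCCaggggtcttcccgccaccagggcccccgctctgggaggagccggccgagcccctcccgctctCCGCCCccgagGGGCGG

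In SLC6A9 (chr1:44031463-44031712, minus strand) they mark TTTGAA, the letters of the cell cycle homology region, found once on the opposite strand and so printed as TTCAAA, with its first base 48 bases before the start.

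SLC6A9: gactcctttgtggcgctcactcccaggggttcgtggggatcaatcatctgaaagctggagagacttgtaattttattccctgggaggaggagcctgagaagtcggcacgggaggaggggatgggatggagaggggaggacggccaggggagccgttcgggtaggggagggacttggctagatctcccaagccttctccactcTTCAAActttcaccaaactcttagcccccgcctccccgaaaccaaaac

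In SLC4A8 (chr12:51424581-51424830, plus strand, a start that lies inside the annotated gene) neither motif was found.

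SLC4A8: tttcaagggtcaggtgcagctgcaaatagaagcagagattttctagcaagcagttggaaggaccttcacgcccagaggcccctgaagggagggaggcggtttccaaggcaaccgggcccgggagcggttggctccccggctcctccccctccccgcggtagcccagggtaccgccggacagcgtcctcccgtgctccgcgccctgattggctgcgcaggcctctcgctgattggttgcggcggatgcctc

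The GC box was present before 95 of the 133 starts (71.4%), against 42.3% of all 27305 promoters in the table and 69.4% of the 7793 that belong to genes with at least 1000 counts. TTTGAA was found before 11 (8.27%), against 13.6% and 8.1%. The ATF4 element core TGATGNAA was found before 1 (0.752%, against 3.19% and 1.21%) and before none of 17 amino acid transporter genes. E-boxes (CACGTG) were found before 13 (9.77%, against 6.49% and 9.28%). The antioxidant response core TGACNNNGC was found before 21 (15.8%, against 11% and 12.2%), and the metal response core TGCNCNC, a loose pattern, before 70 (52.6%, against 48.4% and 56.9%). A p53 element of 2 half-sites was found before 0 of the 133, but it was also found before only 8 of all 27305 starts (0.0293%), so that this 0 says nothing about these genes. These are matches of letters in a short window and do not show binding.

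Over all 159 genes the median log2 fold change was 0.15, beside 0.01 over all genes tested and -0.02 over those with at least 1000 counts. Of the members, 98 had a fitted value above 0 (61.6%, against 51.1% of all genes tested). In 57 members (35.8%) every doxorubicin library was above both DMSO libraries, and in 26 (16.4%) every one was below. The background for these was 24.3% and 23.4% of all genes tested, and 24.5% and 26.2% of those with at least 1000 counts. The median rested in part on DMSO replicate 1, in which the members' log2 CPM had a median deviation of -0.21 from their mean over libraries, while the other 4 libraries lay between 0.03 and 0.08. Without that library it was 0.07, beside 0.04 over all genes tested, and 86 members (54.1%) had a value above 0, beside 53% of all genes. The difference between the members and all genes was thus small in that fit. Without DMSO replicate 2 the median was 0.28, beside 0.01, and 105 members (66%) had a value above 0, beside 50.9%. A fitted change of 1 or more on the log2 scale was seen in 14 members (8.81%), against 15.4% of all genes tested and 10.8% of those with at least 1000 counts.

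**Figure D2:**
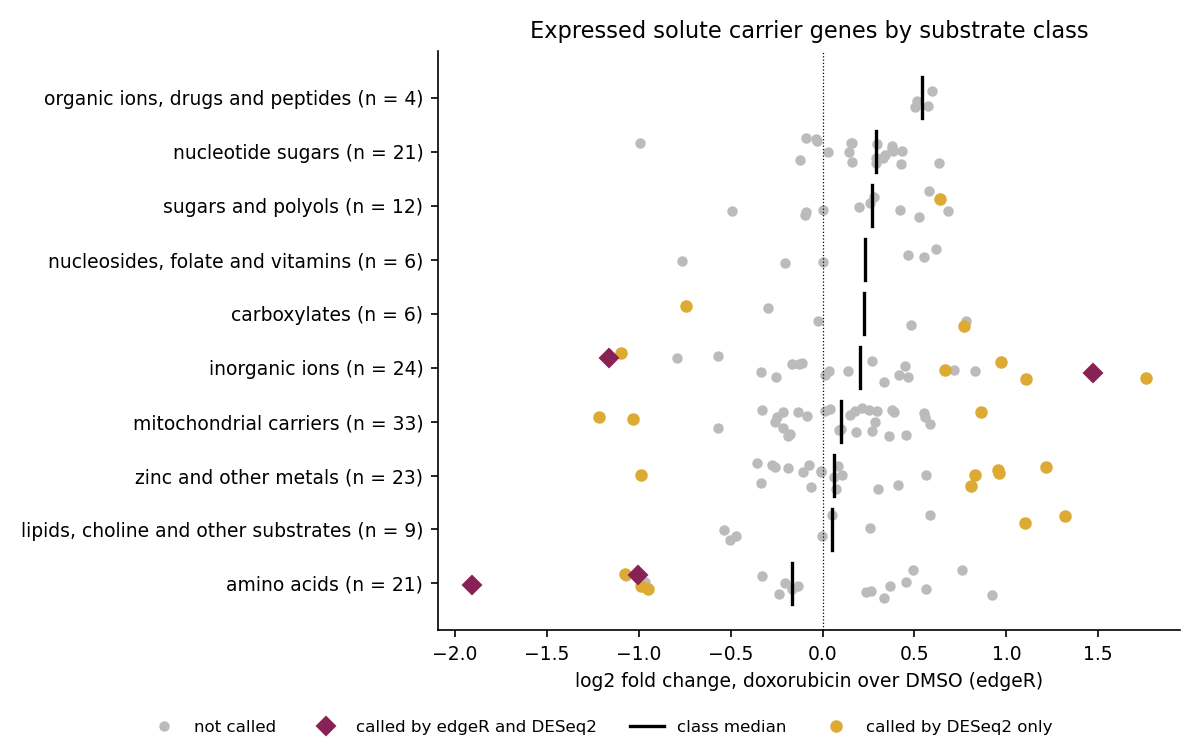
Log2 fold change of each of the 159 genes (horizontal axis, doxorubicin over DMSO, edgeR), arranged in 10 substrate classes set by family number, with class medians as black bars. Diamonds are the 4 genes called by both edgeR and DESeq2 and yellow points those called by DESeq2 alone. The amino acid class has the lowest median, -0.17.

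The members fell into 42 families, of which SLC25 with 33 members, SLC35 with 21 and SLC39 with 10 were the largest, and these were joined into 10 substrate classes by family number alone. The class of amino acid transporters had the lowest median log2 fold change, -0.17 over 21 genes, and held 2 of the 4 calls, SLC43A3 and SLC6A9. SLC43A3 was placed here by its family number, although it carries purine nucleobases, and it is counted in the shares below. In this class 8 genes (38.1%) had all treated libraries below the DMSO libraries and 7 (33.3%) had all above, beside 23.4% and 24.3% of all genes tested. Among genes with at least 1000 counts these shares were 26.2% and 24.5%, which holds for the classes below too. DESeq2 called 5 of the 21 lower and 0 higher, beside 7.72% and 6.37% of all genes and 9.71% and 7.21% of those with at least 1000 counts. Besides the calls above, these were SLC7A1, SLC6A6 and SLC36A4. SLC7A1, the transporter CAT1 for arginine and lysine, had 134 and 133 CPM in DMSO and 68.9, 75.4 and 57.8 CPM after doxorubicin. The groups were far apart, yet its log2 fold change of -0.99 (standard error 0.16) lay just outside the threshold (edgeR adjusted p = 0.0108, DESeq2 adjusted p = 5.74e-06). SLC6A6, which takes up taurine, had 133 and 119 CPM in DMSO and 73.3, 42.6 and 63.6 CPM after doxorubicin, a log2 fold change of -1.08 (edgeR adjusted p = 0.0293). For SLC36A4 the log2 fold change was -0.95 (edgeR adjusted p = 0.0139).

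Transporters that supply glutamine, cystine and leucine did not all lie on the same side of the controls. SLC7A11, the cystine-glutamate exchanger, had 66.2 and 119 CPM in DMSO and 33.6, 61.3 and 37.4 CPM after doxorubicin. The groups did not overlap, but replicate 2 was the higher library of both pairs, and the log2 fold change of -1.07 did not pass the threshold (standard error 0.33, edgeR adjusted p = 0.081). With the replicate number as a block in the DMSO and 0.2 μM libraries, it was -0.96 and passed (edgeR adjusted p = 0.0055). The labels do not say what the number marks. SLC1A5, a carrier of glutamine, showed the same order of replicates, with 78.2 and 145 CPM in DMSO and 55.4, 67.1 and 48.9 CPM after doxorubicin (log2 fold change -0.96, edgeR adjusted p = 0.0635). With the block it did not pass either (edgeR adjusted p = 0.0256). SLC3A2 encodes the heavy chain that brings SLC7A5 and SLC7A11 to the cell surface. Its level was 60.1 and 95.3 CPM in DMSO and 110, 116 and 118 CPM after doxorubicin (log2 fold change 0.56, edgeR adjusted p = 0.129). Its partner SLC7A5, the leucine transporter LAT1, had 319 and 276 CPM in DMSO and 371, 469 and 412 CPM after doxorubicin (log2 fold change 0.49, edgeR adjusted p = 0.108). Thus both chains of the LAT1 pair lay higher in every treated library while the light chain SLC7A11 lay lower. Without the block, none of the 3 passed the threshold. SLC38A2, a carrier of small neutral amino acids and the member with most counts (132778 over all libraries), had 1202 and 906 CPM in DMSO and 988, 898 and 854 CPM after doxorubicin. Its groups overlapped (log2 fold change -0.21, standard error 0.18). The carriers of the lysosome SLC36A1 and SLC38A9 had log2 fold changes of 0.92 and 0.26, with edgeR adjusted p-values of 0.129 and 0.384.

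**Figure D3:**
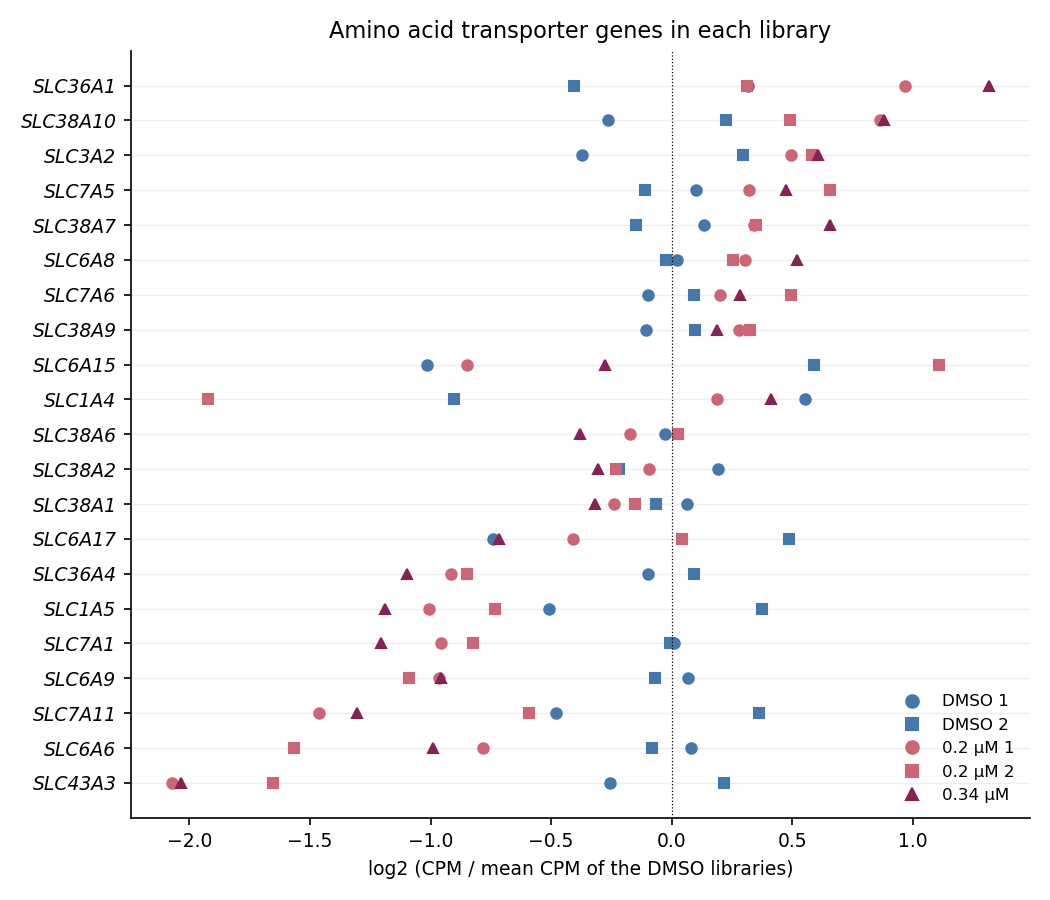
Level of each of the 21 genes of the amino acid class in each library, as the log2 ratio to the mean CPM of the 2 DMSO libraries (horizontal axis), with genes ordered by their fitted fold change. The doxorubicin libraries lie to the left of both DMSO libraries for the genes from SLC43A3 to SLC36A4 at the bottom, and SLC6A15 and SLC1A4 show more difference between replicates than between treatments.

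Among the 24 carriers of inorganic ions, the median log2 fold change was 0.20, and 1 gene rose (SLC12A4) and 1 fell (SLC4A8) in edgeR. Of all genes tested, 1.29% rose and 2.73% fell in the same fit. In 9 genes (37.5%) all treated libraries lay above the DMSO libraries and in 4 (16.7%) below, beside 24.3% and 23.4% of all genes tested. DESeq2 called 5 of the 24 higher (20.8%) and 2 lower (8.33%), beside 6.37% and 7.72% of all genes. SLC17A5 (log2 fold change 0.67) was placed in this class by its family number, and its substrate was not examined. It is counted among the 9 genes and among the 5 higher calls. SLC26A2, the sulfate transporter needed for the sulfation of cartilage proteoglycans, had the largest fitted increase of all members. It had 141 and 151 CPM in DMSO and 329, 780 and 370 CPM after doxorubicin. All treated libraries were higher, but replicate 2 of 0.2 μM was far above the others, and the log2 fold change of 1.76 (standard error 0.40) did not pass the threshold (edgeR adjusted p = 0.0336, DESeq2 adjusted p = 3.64e-05). Without that library it was 1.27. SLC4A3, the anion exchanger AE3, had 23.4 and 22.8 CPM in DMSO and 55.9, 39.9 and 53.4 CPM after doxorubicin (log2 fold change 1.11, edgeR adjusted p = 0.0154). Both genes were called higher by DESeq2. SLC26A10, which RefSeq lists as a pseudogene and which overlaps B4GALNT1, had a log2 fold change of -1.09 (edgeR adjusted p = 0.0411), and it was called lower by DESeq2. SLC12A2, the sodium-potassium-chloride cotransporter NKCC1, differed little, with 43.1 and 37.9 CPM in DMSO and 35.1, 36.2 and 39.8 CPM after doxorubicin (log2 fold change -0.13, standard error 0.15). SLC20A1, a phosphate transporter, had 310 and 804 CPM in the DMSO libraries and 306, 377 and 282 CPM in the treated libraries, so that a single library, DMSO replicate 2, stood apart. Its log2 fold change was -0.79 with all libraries and 0.03 without that one.

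The zinc, copper, iron and magnesium carriers numbered 23, with a median log2 fold change of 0.06. They had 0 calls in edgeR, beside 4.02% of all genes tested. DESeq2 called 5 of them higher (21.7%) and 1 lower (4.35%), beside 6.37% and 7.72% of all genes. SLC30A1, the zinc exporter of the plasma membrane, had 26.1 and 30.1 CPM in DMSO and 47.1, 57.3 and 59.5 CPM after doxorubicin. The groups were well apart (log2 fold change 0.96, standard error 0.18, edgeR adjusted p = 0.017). SLC31A2, a copper transporter of endosomes, had 4.58 and 5.52 CPM in DMSO and 8.47, 14.2 and 12.5 CPM after doxorubicin (log2 fold change 1.22, edgeR adjusted p = 0.0385). The other 3 that DESeq2 called higher were the zinc transporters SLC39A11 and SLC39A13 and the iron exporter SLC40A1, with log2 fold changes of 0.81, 0.83 and 0.96. The lower call was SLC39A8, a carrier of zinc and manganese, at -0.99 (edgeR adjusted p = 0.0403). SLC39A14, a related importer of zinc and iron, and SLC11A2, the iron importer DMT1, did not pass either test, at -0.11 and -0.28. Within the SLC39 family the values ran from -0.99 to 0.83, around a median of -0.06.

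Of the 33 mitochondrial carriers, 0 were called by edgeR, beside 4.02% of all genes tested, and the median log2 fold change was 0.10. DESeq2 called 1 higher (3.03%) and 2 lower (6.06%), beside 6.37% and 7.72% of all genes. SLC25A40, which carries glutathione into mitochondria, had 20.4 and 26.9 CPM in DMSO and 10.9, 10.9 and 8.90 CPM after doxorubicin. Its log2 fold change of -1.22 (standard error 0.20) lay just outside the threshold (edgeR adjusted p = 0.0127, DESeq2 adjusted p = 1.28e-05). Its close relative SLC25A39 had a log2 fold change of 0.25 (edgeR adjusted p = 0.337). SLC25A10, the dicarboxylate carrier, had 20.5 and 37.4 CPM in DMSO and 15.9, 12.9 and 13.7 CPM after doxorubicin (log2 fold change -1.03, edgeR adjusted p = 0.0516). SLC25A20, which exchanges carnitine for acylcarnitine and so feeds fatty acid oxidation, had the largest fitted value in the family, going from 5.30 and 5.29 CPM in DMSO to 10.4, 9.02 and 9.40 CPM after doxorubicin (log2 fold change 0.86, edgeR adjusted p = 0.0422, DESeq2 adjusted p = 0.00440). The ADP/ATP carriers had log2 fold changes of 0.56 for SLC25A4, -0.18 for SLC25A5 and 0.27 for SLC25A6. SLC25A4 had 38 and 43.1 CPM in DMSO and 58.5, 62.5 and 58 CPM after doxorubicin (edgeR adjusted p = 0.0514). Its groups did not overlap, while those of SLC25A5 did. SLC25A5 and SLC25A6 are closely similar in sequence, and SLC7A5, SLC6A8 and SLC35E2 have partial or full copies in the genome, so that how reads were divided among such copies is uncertain. SLC25A3, the phosphate carrier, had 256 and 395 CPM in DMSO and 430, 425 and 423 CPM after doxorubicin (log2 fold change 0.39, edgeR adjusted p = 0.262), and the DMSO libraries differed more from each other than DMSO replicate 2 did from the treated libraries.

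**Figure D4:**
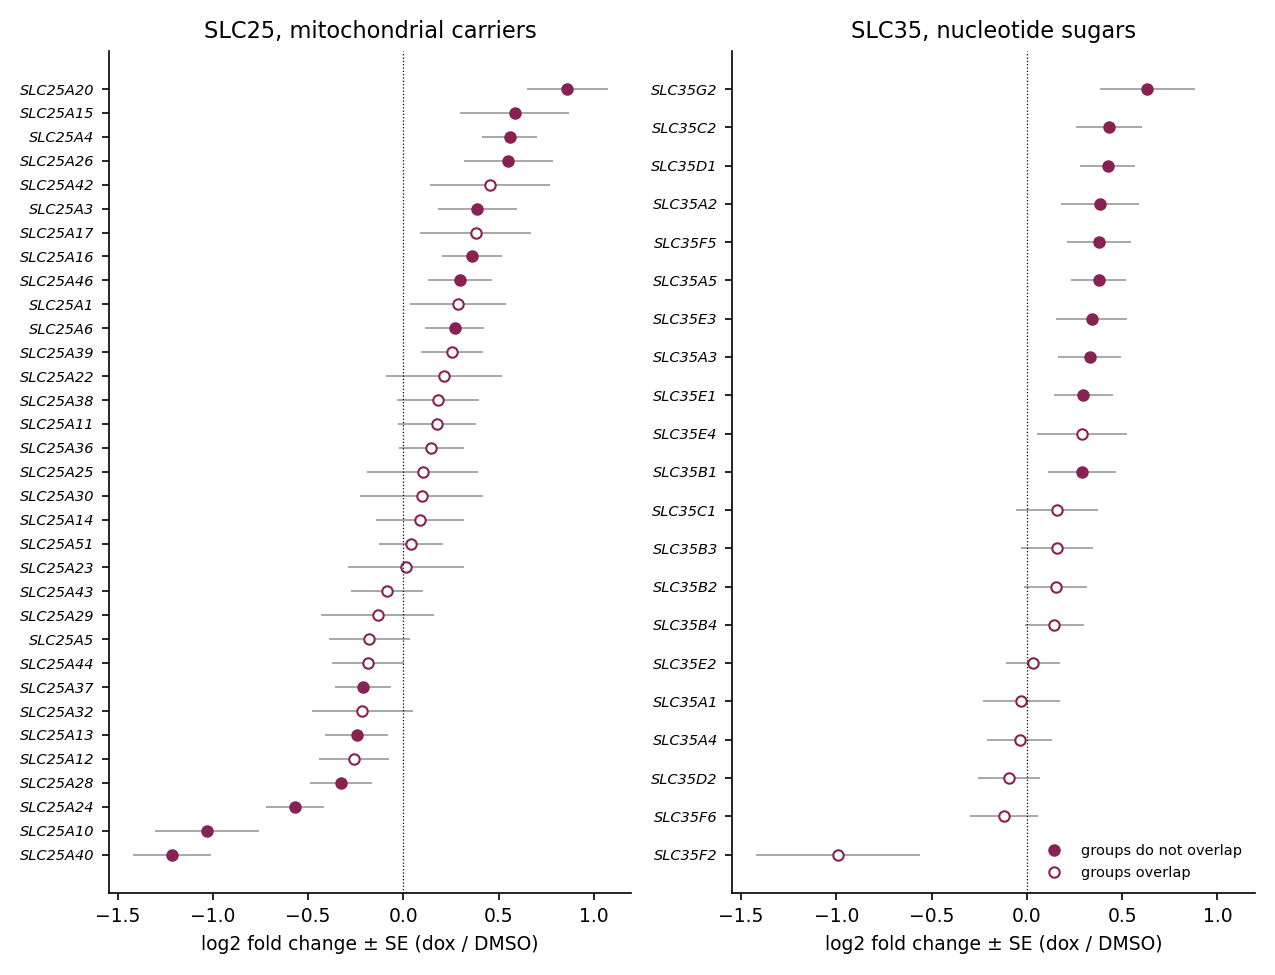
Log2 fold change with its standard error (horizontal axes) for the 33 genes of the SLC25 family and the 21 of the SLC35 family, ordered by value. Filled points have no overlap between the treated and the DMSO libraries; in SLC35 these are 10 genes, all above 0.

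Transporters of nucleotide sugars bring the substrates of glycosylation into the Golgi and the endoplasmic reticulum. The SLC35 family was placed in this class by its number, and the substrate of each member was not examined. Its fitted values were small and mostly above 0. Of the 21 SLC35 genes, 16 had a fitted value above 0. The family's median was 0.29, and edgeR and DESeq2 called 0 of them, beside 4.02% and 14.1% of all genes. In 10 of the 21 (47.6%) all treated libraries lay above both DMSO libraries and in 0 below, beside 24.3% and 23.4% of all genes tested. Summed over the 21 genes, the level was 759 and 849 CPM in DMSO and 927, 877 and 919 CPM after doxorubicin. DMSO replicate 2 thus lay closer to each treated library than to DMSO replicate 1. In DMSO replicate 1 the members as a whole lay low (median deviation -0.21). The family's values without that library are not given here. SLC35A2, the UDP-galactose transporter, had 16.8 and 24.8 CPM in DMSO and 27.6, 27.3 and 26.4 CPM after doxorubicin (log2 fold change 0.38, standard error 0.20, edgeR adjusted p = 0.259). The treated libraries lay close to each other, and DMSO replicate 1 was the lowest library. The largest value in the family, 0.63, was that of SLC35G2, and the lowest, -0.99, that of SLC35F2, which had 24.1 and 57.7 CPM in DMSO and 17.2, 29.8 and 14.8 CPM after doxorubicin, with overlapping groups.

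In the class of sugars and polyols the median log2 fold change over 12 genes was 0.27, with 0 calls in edgeR, beside 4.02% of all genes. DESeq2 called 1 higher (8.33%) and 0 lower, beside 6.37% and 7.72% of all genes. The higher call was SLC2A1, the glucose transporter GLUT1, with 530 and 627 CPM in DMSO and 958, 802 and 941 CPM after doxorubicin. All treated libraries were higher (log2 fold change 0.64, standard error 0.17, edgeR adjusted p = 0.057, DESeq2 adjusted p = 0.00744). SLC2A3, encoding GLUT3, had a log2 fold change of -0.10 with overlapping groups. Of the 6 carboxylate transporters, DESeq2 called 1 higher (16.7%) and 1 lower (16.7%), beside 6.37% and 7.72% of all genes. The lower call was SLC16A14, with a log2 fold change of -0.74. SLC16A3, the lactate exporter MCT4, had 223 and 273 CPM in DMSO and 502, 283 and 490 CPM after doxorubicin. Replicate 2 of 0.2 μM was thus nearly at the level of DMSO (log2 fold change 0.78, standard error 0.28, edgeR adjusted p = 0.114). SLC16A3 was not the higher call of DESeq2 either (DESeq2 adjusted p = 0.0432). SLC16A1, which encodes MCT1, had a log2 fold change of -0.03. BSG, the chaperone of both proteins, which is not a carrier itself, had a log2 fold change of 0.55 (edgeR adjusted p = 0.0623, DESeq2 adjusted p = 0.00856).

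The remaining classes held no calls in edgeR. Among 9 genes for lipids, choline and other substrates, SLC48A1, which moves heme out of lysosomes, had 28.5 and 22.2 CPM in DMSO and 52.3, 63 and 74.0 CPM after doxorubicin. The groups were well separated, and the log2 fold change of 1.32 (standard error 0.21) lay just outside the threshold (edgeR adjusted p = 0.0116, DESeq2 adjusted p = 1.14e-06). SLC27A1, a fatty acid transport protein, had 22.2 and 20.1 CPM in DMSO and 47.4, 37.4 and 50.9 CPM after doxorubicin (log2 fold change 1.10, standard error 0.19, edgeR adjusted p = 0.0144). It too was called by DESeq2. SLC27A4 of the same family had 0.58 (edgeR adjusted p = 0.196), the choline transporter SLC44A1 -0.54 (edgeR adjusted p = 0.0514) and the acetyl-CoA transporter SLC33A1 0.26 (edgeR adjusted p = 0.347). Of 6 carriers of nucleosides, folate and vitamins, 0 were called by either test, beside 4.02% (edgeR) and 14.1% (DESeq2) of all genes. SLC29A1, the nucleoside transporter ENT1, had overlapping groups and a log2 fold change of -0.20, and SLC19A1, the reduced folate carrier, had 11.2 and 18.4 CPM in DMSO and 9.51, 6.94 and 9.70 CPM after doxorubicin (log2 fold change -0.76, edgeR adjusted p = 0.12). The 4 carriers of organic ions and peptides had values between 0.51 and 0.60, and none passed either test. In each of these carriers, every treated library exceeded both controls. Of the 14187 genes in the edgeR fit, 24.3% showed this upward separation.

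Some members differed more between libraries of one treatment than between treatments. They were chosen after their values were seen. The DMSO libraries differed by more than 1 on the log2 scale in 12 members and the 0.2 μM libraries in 7. In 5 members, SLC14A1, SLC16A4, SLC1A4, SLC4A4 and SLC6A15, both pairs did so with the same sign, and in SLC52A2 with opposite signs. SLC14A1, a urea transporter, had 49.9 and 10.0 CPM in DMSO, 35.8 and 2.12 CPM at 0.2 μM and 26.8 CPM at 0.34 μM. Both libraries numbered 2 were low for this gene. SLC16A4 showed the same order, with 27.6 and 5.48 CPM in DMSO, 33.8 and 7.90 CPM at 0.2 μM and 27.4 CPM at 0.34 μM. SLC6A15, a transporter of neutral amino acids, showed the reverse order, with 7.86 and 23.9 CPM in DMSO, 8.82 and 34.3 CPM at 0.2 μM and 13.1 CPM at 0.34 μM. With the replicate numbers set aside, no difference between treatments could be seen for these genes over the spread of the replicates. Between libraries of the same number, SLC14A1 was lower at 0.2 μM than in DMSO, and SLC16A4 and SLC6A15 were higher. None of these genes was called with the replicate number as a block.

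**Figure D5:**
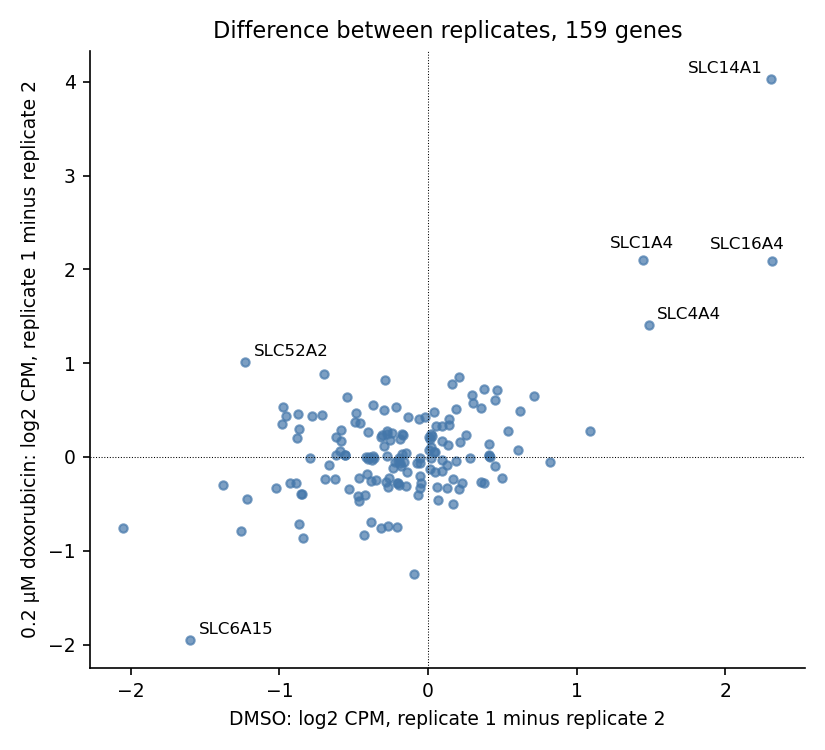
Difference between replicate 1 and replicate 2 in log2 CPM for each of the 159 genes, in the DMSO pair (horizontal axis) and in the 0.2 μM pair (vertical axis). The named genes differ by more than 1 in both pairs, with SLC14A1 at 2.31 and 4.03.

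Between 0.34 and 0.2 μM doxorubicin no solute carrier gene could be distinguished. With edgeR, 0 of 159 passed the threshold and 0 had an unadjusted p under 0.05, where the background was 0% of all genes tested and 22 of 14187 at an unadjusted p under 0.05. DESeq2 called 0 members. The higher dose has a single library, whose spread was taken from the other pairs. With so few of all genes under the unadjusted limit, this contrast could hardly call any gene. It does not show that the doses acted alike.

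Other carriers and partner proteins lie outside the symbol pattern. Of 42 such genes, 37 were tested with a median log2 fold change of 0.03, and 0 passed the threshold in edgeR, with 10 (27%) at an unadjusted p under 0.05, beside 30.8% of all genes tested. DESeq2 called 4 higher and 2 lower (16.2%), beside 14.1% of all genes. SLCO4A1, a carrier of organic anions that was named after its values were seen, had 2.56 and 14.3 CPM in DMSO and 0.773, 1.25 and 0.303 CPM after doxorubicin. All treated libraries were lower, although the DMSO libraries differed widely (log2 fold change -3.47, edgeR adjusted p = 0.037, DESeq2 adjusted p = 4.66e-05). UCP2, an uncoupling protein of the SLC25 type, had 28.1 and 17.9 CPM in DMSO and 51.8, 40.8 and 64.3 CPM after doxorubicin (log2 fold change 1.19, edgeR adjusted p = 0.0376).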

How the data were processed

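RNA-seq of poly-A RNA was performed on 5 libraries of RPE1 cells. Raw read counts for each gene were deposited by the authors, obtained by mapping to hg38 with STAR and counting with featureCounts of the Rsubread package. Versions, the strand setting and the treatment of multi-mapping reads were not given in the sources used here, so that reads of overlapping genes or close copies could be shared. A second deposited table holds only the authors' own DESeq2 comparison (mean, fold change, test statistic and p-values) and was not used. Software was R 4.3.3, limma 3.58.1, DESeq2 1.42.0 and edgeR 4.0.16. Groups were compared by edgeR's quasi-likelihood test on 14187 genes (minimum count 10, minimum total 15, TMM normalization), with Benjamini-Hochberg adjustment over all of them and a threshold of 0.01. A standard error is the size of the log2 fold change over the root of its F value. Log2 CPM for replicate differences used a prior count of 2. The scripts were tested on simulated counts. To look for libraries deposited more than once, the counts of replicates were compared by chi-square, which per degree of freedom was 117 in DMSO and 75.3 at 0.2 μM. All libraries were therefore kept as separate.

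The members, classes and lists were chosen with earlier results of these data known. Genes were named by rule: calls of edgeR, the 5 largest changes per direction called by DESeq2 alone, 25 example genes, the 5 members with most counts and those at the limit of 1000. Other named genes complete a class and were picked after their values were seen. Of 159 symbols, 156 matched RefSeq by symbol, 2 by an older symbol and 1 (SLC35E2) not, and 64 overlap no other gene there. Alternatives were the tool, normalization, filter, threshold, count limit, grouping of doses, each library left out, and a replicate block. Some members that the naming rule covers are not reported here.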

Additional observations from a re-analysis of the deposited data

How the results depend on the processing

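The number of called members depended on the test. It was 4 in edgeR, 26 with DESeq2, 2 with limma voom, 12 without the filter on low counts, 23 at an adjusted p of 0.05 (14.5%, against 13.6% of all genes), 1 among members with at least 5000 counts and 0 in the contrast of 0.2 μM with DMSO in a fit of 3 conditions. With each library left out it was between 0 and 1. With other size factors (RLE) it stayed at 4. The list of related carriers gave 0 calls with edgeR and 6 with DESeq2. The median log2 fold change of 0.15 lay between 0.074 and 0.279 with each library left out and between 0.14 and 0.19 under the other alternatives. The values of SLC38A2 (-0.41 to 0.0042), SLC20A1 (-1.33 to 0.035), SLC25A5 (-0.46 to 0.15), SLC39A14 (-0.38 to 0.20), SLC16A1 (-0.15 to 0.064) and SLC2A3 (-0.32 to 0.15) changed sign with a library left out, and none of them was called. The cause was not tested. Labels number the replicates of DMSO and of 0.2 μM but do not say that a number marks a shared culture or day. With the replicate number as a block, the 4 libraries gave 12 called members, 5 higher and 7 lower, beside 1249 of all genes (8.99%). These were the 4 calls of edgeR and SLC26A2 (edgeR adjusted p = 4.2e-05), SLC6A6 (0.0017), SLC48A1 (0.0021), SLC7A11 (0.0055), SLC4A3 (0.0067), SLC25A40 (0.0078), SLC27A1 (0.0082) and SLC7A1 (0.0088). The differences of replicate 1 from replicate 2 in the DMSO pair and in the 0.2 μM pair had an r of 0.55 across the 159 genes, which are not independent, and 0.528 across all genes. A single library at 0.34 μM and a pair of controls limit what could be called.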

Other observations

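Of the solute carrier genes with fewer than 1000 counts, 70 passed the filter on low counts. SLC52A1, a riboflavin transporter, had 0 counts in both DMSO libraries and 19, 22 and 41 counts after doxorubicin. SLC38A11 had 0 counts in DMSO and 10, 5 and 19 after doxorubicin. Both genes passed the filter through the doxorubicin libraries alone, so the counts are given without a fold change or a test.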
